A study of Mus musculus with 36 samples.

Results

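The dystrophin-glycoprotein complex was described here by 8 genes, *Dmd*, *Utrn*, *Dag1*, *Sgca*, *Sgcb*, *Sgcd*, *Sntb1* and *Sspn*, taken by gene name from the 55416 genes of a raw count table. All 8 were found, and all 8 passed the filter on low counts, which 13995 genes passed in all. The counts came from 36 RNA-seq libraries of C2C12 myotubes, the multinucleate fibres that this mouse myoblast line forms when serum is reduced. Every well received an antisense locked nucleic acid (LNA) on the day before harvest, which targeted the long non-coding RNA *Tug1* in the knockdown (*Tug1* KD) wells and was a negative control LNA in the other (control) wells, so no group was free of an LNA. On differentiation day 4 the myotubes either sat with unconnected electrodes (Rest) or contracted under electrical pulse stimulation (EPS) for 3 h. Stimulated wells were harvested at the end of stimulation (EPS 0h) or 3 h later (EPS 3h), and a single Rest group served both times, so recovery and elapsed time cannot be told apart at EPS 3h. Each of the 6 groups held 6 libraries, which were wells from 2 independent experiments, so p values measure the spread between these wells.

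The complex ties the actin cytoskeleton of a muscle fibre through the surface membrane to laminin in the basement membrane. Dystrophin (*Dmd*) binds actin inside the cell and β-dystroglycan at the membrane, and its autosomal relative utrophin (*Utrn*) makes the same connection in immature fibres and at the neuromuscular junction. Dystroglycan (*Dag1*) spans the membrane and carries the sugar chain that laminin binds, the sarcoglycans and sarcospan (*Sspn*) stabilise it sideways in the membrane, and syntrophins such as *Sntb1* attach signalling proteins on the inside. Loss of dystrophin causes Duchenne muscular dystrophy, and loss of a sarcoglycan causes a limb-girdle form.

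The genes differ widely in size. On GRCm39 (GENCODE annotation), *Dmd* lies on chromosome X from 81992474 to 84249747 on the plus strand and spans 2257 kb, which made it the third longest of 13946 tested genes with a known span. *Sgcd* (chromosome 11, 46787080 to 47879796, minus strand) spans 1093 kb, *Utrn* (chromosome 10, 12257537 to 12745265, minus strand) 487.7 kb and *Sntb1* (chromosome 15, 55499784 to 55771046, minus strand) 271.3 kb. The other members are short: *Dag1* (chromosome 9, 108081833 to 108152333, minus strand) spans 70.5 kb, *Sspn* (chromosome 6, 145877367 to 145910950, plus strand) 33.58 kb, *Sgcb* (chromosome 5, 73790086 to 73805133, minus strand) 15.05 kb and *Sgca* (chromosome 11, 94853605 to 94867273, minus strand) 13.67 kb. Exons make up 1.07% of the span of *Dmd*, 1.09% of *Sgcd* and 34.9% of *Sgcb*.

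The promoters of the 3 members that rose with *Tug1* KD in all conditions (below) are shown because these genes moved together. Each line gives the 250 bases of GRCm39 before the start of the gene's canonical transcript, 5′ to 3′ on the gene's own strand. Capitals mark matches to CANNTG, the E-box that myogenic factors can bind, which reads the same on both strands.

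Dmd (chrX:81992224-81992473, plus strand): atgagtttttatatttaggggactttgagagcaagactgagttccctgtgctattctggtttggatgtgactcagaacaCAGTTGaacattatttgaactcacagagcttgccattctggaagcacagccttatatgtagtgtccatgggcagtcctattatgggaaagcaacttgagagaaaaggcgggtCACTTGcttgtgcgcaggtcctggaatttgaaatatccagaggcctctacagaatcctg
Utrn (chr10:12745266-12745515, minus strand): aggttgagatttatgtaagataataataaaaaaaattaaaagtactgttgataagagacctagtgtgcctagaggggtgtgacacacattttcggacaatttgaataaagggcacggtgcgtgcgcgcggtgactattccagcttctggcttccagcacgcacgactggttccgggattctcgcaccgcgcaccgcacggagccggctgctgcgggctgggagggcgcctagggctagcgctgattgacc
Sgcd (chr11:47270350-47270599, minus strand): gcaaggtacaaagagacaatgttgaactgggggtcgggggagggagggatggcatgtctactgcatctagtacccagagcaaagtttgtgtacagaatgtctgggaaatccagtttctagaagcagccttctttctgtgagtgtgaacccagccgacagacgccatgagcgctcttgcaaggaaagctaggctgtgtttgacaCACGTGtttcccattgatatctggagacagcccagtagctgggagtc

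The *Dmd* window held 2 matches, the *Sgcd* window 1 and the *Utrn* window 0. At least 1 match was present in 6 of the 8 members and in 60.5% of 13945 tested promoters of this length. The *Sgcd* start shown lies inside the annotated span, since other transcripts of that gene begin farther upstream.

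Library depth ranged from 17005079 to 24181167 counts on genes, with a median of 19439667.5. *Tug1* itself was lower in *Tug1* KD at Rest, where control libraries ran from 38.6 to 58.3 CPM (counts scaled to library size with TMM factors) and KD libraries from 24 to 33.3 CPM (log2FC -0.83, SE 0.171, FDR = 0.000915). The difference was -0.57 at EPS 0h (FDR = 0.0178) and -0.51 at EPS 3h (FDR = 0.0414), with libraries of the 2 groups overlapping at both times. Mean *Tug1* in KD was 45.5 CPM at EPS 0h and 57 CPM at EPS 3h, against 67.5 and 81.3 CPM in control. Rest control had a mean of 48.4 CPM, so the EPS 3h KD mean lay above that of Rest control. The labelled cell type matched its markers, since the summed level of 10 myotube genes such as *Myog*, *Myh3* and *Acta1* lay between 14410 and 21160 CPM in all libraries. The log2FC of these 10 genes with *Tug1* KD at Rest ran from -0.26 to 0.25, with a median of 0.13. The range was wider after stimulation, from -0.50 to 0.65 at EPS 0h (median -0.03) and from -0.46 to 0.71 at EPS 3h (median 0.01). The libraries parted by replicate number, 1 to 3 from 4 to 6, and these were handled as 2 sets, although the labels do not name the experiment of each number.

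Compared per length, as CPM per kilobase of merged exons (RPKM), *Dag1* had the highest level of the 8 in Rest control myotubes at 68.2 RPKM. *Sgcb* followed at 43.8, *Sgca* at 27.8, *Sspn* at 16.1 and *Sntb1* at 13.3 RPKM. *Utrn* stood at 9.57 RPKM, whereas *Sgcd* had 0.474 and *Dmd* 0.0512 RPKM. *Dmd* thus rested on 15 to 38 counts per Rest control library, and *Utrn* on 2430 to 4896. The count table sums all isoforms of a gene, so full-length dystrophin and its short products could not be separated.

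*Dmd* was the member that changed most with *Tug1* KD at Rest. Control libraries measured from 0.644 to 1.99 CPM (median 1.26) and KD libraries from 4.42 to 8.27 CPM (median 6.63), or 99 to 154 counts, and the groups did not overlap. The mean went from 1.23 ± 0.521 to 6.62 ± 1.40 CPM (SD, n = 6 per group), a 5.4-fold difference (log2FC 2.43, 95% interval 1.75 to 3.12, FDR = 3.09e-06). It was the largest rise of all 13995 genes by fold, and *Dmd* passed the filter in control libraries alone, with at least 1 RPM in 16 of 18. Replicates 1 to 3 alone gave a log2FC of 2.22 and replicates 4 to 6 alone 2.77.

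The same comparison after stimulation gave differences of like size for *Dmd*. At EPS 0h control libraries ran from 1.21 to 2.92 CPM (median 1.85) and KD libraries from 6.52 to 17.5 CPM (median 11.8). At EPS 3h control libraries ran from 1.52 to 4.26 CPM (median 2.88) and KD libraries from 7.26 to 28 CPM (median 15.3). All KD libraries lay above all control libraries at both times, with a log2FC of 2.62 (SE 0.322, FDR = 2.95e-07) at EPS 0h and 2.59 (SE 0.314, FDR = 3.56e-07) at EPS 3h. Within the stimulated KD groups, replicates 1 to 3 were the highest 3 libraries.

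*Utrn* was also higher with *Tug1* KD, by a smaller factor and at a far higher level. At Rest, control libraries measured 104 to 226 CPM (median 186) and KD libraries 212 to 352 CPM (median 261), so the groups overlapped at their edges. The log2FC was 0.66 (SE 0.174, FDR = 0.0093). Nearly all of that difference lay in replicates 4 to 6, with a log2FC of 1.11 (FDR = 8.39e-05) against 0.25 (FDR = 0.416) in replicates 1 to 3, although the test of the difference between sets did not pass the threshold (log2 difference 0.865, SE 0.233, FDR = 0.126). That test called 0 genes of 13995 at Rest and EPS 0h and 0.0214% at EPS 3h, none of them a member. At EPS 0h control libraries ran from 163 to 310 CPM and KD libraries from 350 to 584 CPM, without overlap, and the log2FC was 0.90 (SE 0.174, FDR = 0.000323). At EPS 3h it was 0.83 (SE 0.174, FDR = 0.00104), and both sets gave nearly the same value at that time, 0.83 and 0.84.

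Dystroglycan, the laminin receptor at the centre of the complex, did not pass the threshold with *Tug1* KD. *Dag1* measured 408 to 516 CPM in Rest control and 441 to 626 CPM in Rest KD libraries (log2FC 0.18, 95% interval -0.02 to 0.39, FDR = 0.313). Its log2FC was 0.13 at EPS 0h (95% interval -0.08 to 0.34) and 0.04 at EPS 3h (95% interval -0.17 to 0.25). In replicates 4 to 6 alone the EPS 0h value was 0.33 (FDR = 0.00881), against -0.06 in the other set.

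The 3 sarcoglycans among the members differed from each other. *Sgcd*, which encodes δ-sarcoglycan, measured 4.51 to 6.84 CPM (median 5.57) in Rest control and 7.9 to 13.8 CPM (median 9.21) in Rest KD libraries, without overlap. Its log2FC was 0.80 (SE 0.226, FDR = 0.0171) at Rest, 1.17 (SE 0.223, FDR = 0.000253) at EPS 0h and 0.94 (SE 0.219, FDR = 0.00331) at EPS 3h, and at each time the lowest KD library was no lower than the highest control library. *Sgca* (α-sarcoglycan), which assembles in the same tetramer, had a log2FC of -0.03 at Rest (95% interval -0.22 to 0.17), -0.14 at EPS 0h and -0.01 at EPS 3h. *Sgcb* (β-sarcoglycan) had -0.07 (95% interval -0.30 to 0.15), 0.05 and -0.04, and neither gene passed the threshold in any comparison of the main analysis.

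*Sspn*, the tetraspan-like protein that binds the sarcoglycans, was lower with *Tug1* KD after stimulation. It measured 68.3 to 94.1 CPM (median 79.9) in EPS 0h control and 54.7 to 71.4 CPM (median 67.5) in EPS 0h KD libraries, and the groups overlapped (log2FC -0.28, SE 0.0851, FDR = 0.0221). At EPS 3h, 55.6 to 76.8 CPM stood against 50.1 to 62.3 CPM (log2FC -0.27, SE 0.0854, FDR = 0.0301). At Rest the log2FC was -0.19 and did not pass (FDR = 0.181), though all 6 KD libraries lay below the control mean. Both calls were lost in either replicate set alone, where the log2FC ran from -0.34 to -0.19, as well as with no filter and in the compared groups alone.

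*Sntb1*, which encodes β1-syntrophin, differed between replicate sets in every group. In Rest control myotubes replicates 1 to 3 measured 106 to 117 CPM and replicates 4 to 6 measured 37.4 to 59.1 CPM. The log2FC with *Tug1* KD was 0.41 at Rest (FDR = 0.465), 0.61 at EPS 0h (FDR = 0.157) and 0.53 at EPS 3h (FDR = 0.265), none past the threshold. Same-numbered libraries deviated together at EPS 0h and EPS 3h, which the parting of the replicate sets alone could give. With the replicate number as a block, the log2FC was 0.65 (FDR = 0.000106) at EPS 0h and 0.53 (FDR = 0.00152) at EPS 3h. Within the sets it was 0.55 and 0.79 at EPS 0h and 0.53 in each at EPS 3h, all past the threshold, and at Rest the first set gave 0.17 (FDR = 0.447) and the second 0.84 (FDR = 0.00074).

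**Figure D1:**
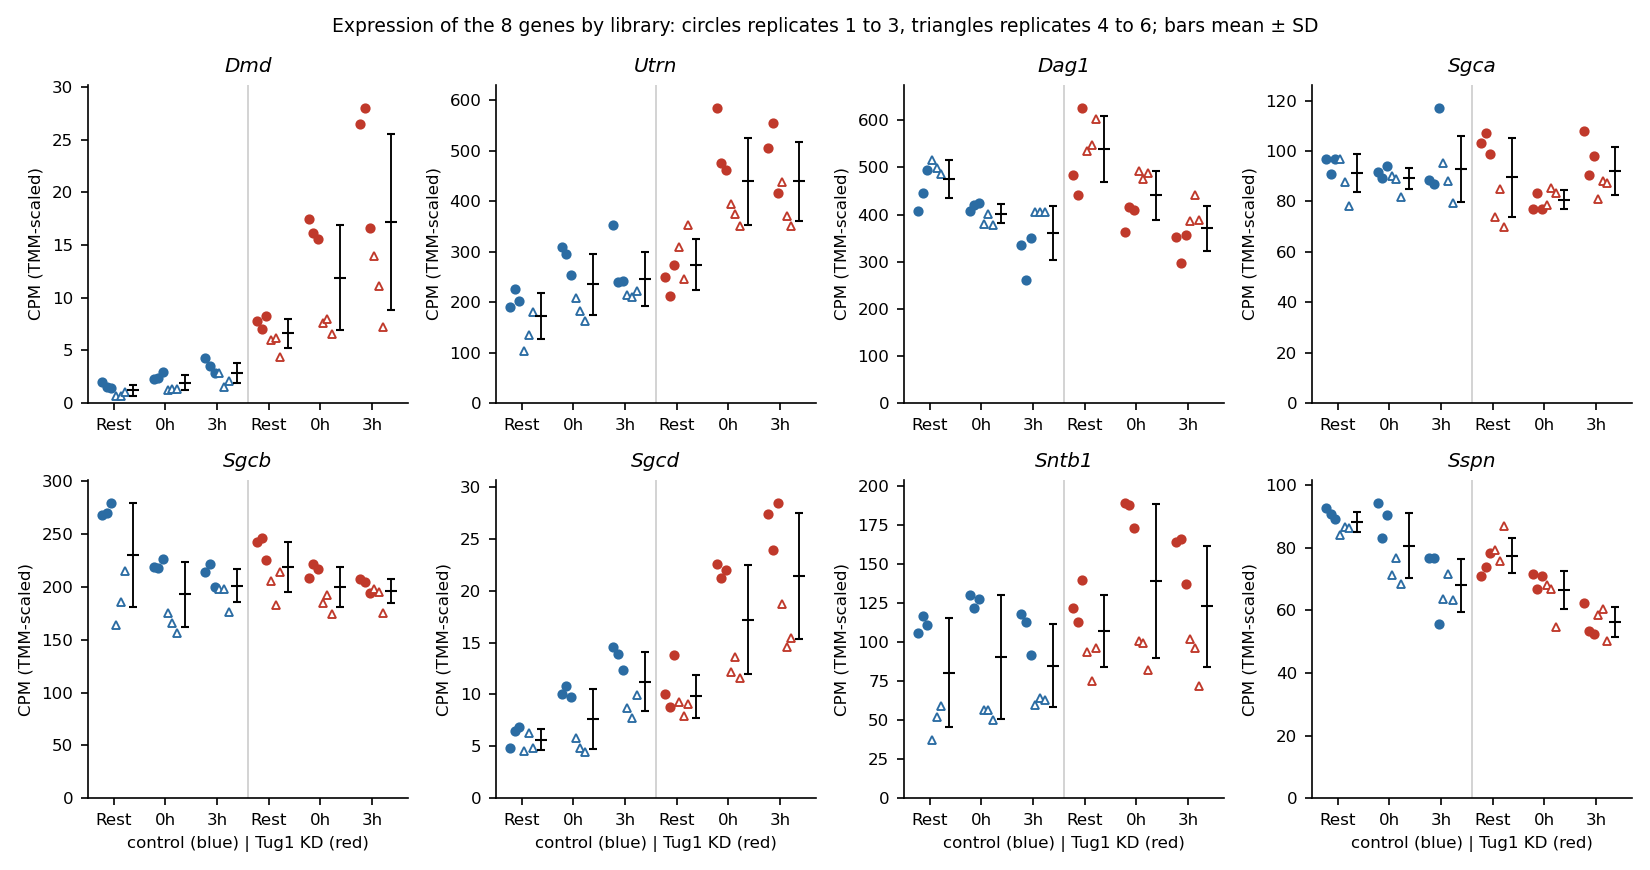
Expression of the 8 genes in each of the 36 libraries, in TMM-scaled CPM from 0, with control groups in blue and *Tug1* KD groups in red at Rest, EPS 0h and EPS 3h. Circles are replicates 1 to 3, triangles replicates 4 to 6 and bars the mean ± SD (n = 6). *Dmd* is at or below 4.26 CPM in all control libraries and at or above 4.42 CPM in all KD libraries, and *Sntb1* parts by replicate set in every group.

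Counted together, 3 of the 8 members rose with *Tug1* KD at Rest, where 10% of all 13995 genes tested were called (5.54% higher and 4.47% lower). At EPS 0h 3 rose and 1 fell, where 14.3% of all genes were called (8.25% higher and 6.07% lower). At EPS 3h 3 rose and 1 fell, where 11.5% were called (6.38% higher and 5.11% lower). Without overlap between groups, *Dmd* and *Sgcd* were higher at Rest, where 4.34% of all genes were higher and 3.73% lower in that way. *Dmd*, *Utrn* and *Sgcd* were higher without overlap at EPS 0h (4.83% of all genes higher, 3.11% lower), and *Dmd* and *Sgcd* at EPS 3h (2.68% higher, 1.94% lower). The members' median log2FC was 0.30, 0.37 and 0.29 in these comparisons, against -0.03, -0.00 and -0.01 over all genes. The rising genes were *Dmd*, *Utrn* and *Sgcd* each time. In poly-A RNA from whole wells, more cells making a transcript and more transcript per cell cannot be told apart.

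At EPS 3h dystrophin, utrophin and δ-sarcoglycan transcripts were higher, and those of dystroglycan and sarcospan lower, than at Rest in control myotubes. Of the 8 members 3 rose and 2 fell, where 52% of all genes were called (26.1% higher and 25.9% lower), so the share of members was close to the background. *Dmd* went from 1.23 ± 0.521 to 2.87 ± 0.975 CPM (SD, n = 6), with a log2FC of 1.23 (SE 0.346, FDR = 0.00324) and overlapping libraries. *Sgcd* went from 4.51 to 6.84 CPM at Rest to 7.69 to 14.6 CPM, without overlap (log2FC 0.99, SE 0.226, FDR = 0.000392). *Utrn* had a log2FC of 0.51 (SE 0.174, FDR = 0.0137), which fell to 0.34 (FDR = 0.0995) when libraries were scaled by their size only.

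The members that fell at EPS 3h were shorter genes with small changes. *Dag1* dropped from 408 to 516 CPM at Rest to 261 to 406 CPM, without overlap (log2FC -0.40, SE 0.103, FDR = 0.00145). *Sspn* dropped from 84.1 to 92.6 CPM to 55.6 to 76.8 CPM, also without overlap (log2FC -0.38, SE 0.0851, FDR = 0.000334). In all genes tested, 15.2% lay higher and 13.8% lower without overlap in this comparison. *Sgca* stayed at 0.02 (95% interval -0.17 to 0.22) and *Sntb1* at 0.08 (95% interval -0.50 to 0.66), neither past the threshold. *Sgcb* had a log2FC of -0.20 (FDR = 0.138), and -0.18 (FDR = 0.0434) with the replicate block.

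Directly after stimulation fewer members had moved in control myotubes. Only *Utrn* passed the threshold at EPS 0h (log2FC 0.44, SE 0.174, FDR = 0.0403), where 38.9% of all genes were called (20.5% higher and 18.4% lower), and that call was lost in replicates 4 to 6 alone and in 3 other alternatives. Every member's groups overlapped, where 11.8% of all genes were higher and 10.1% lower without overlap. The same-numbered libraries of these groups deviated together, which the parting of the replicate sets alone could give. With the replicate block 5 members passed, where 49.9% of all genes did in that fit (24.4% higher and 25.5% lower). These were *Dmd* (log2FC 0.65, FDR = 0.00796), *Utrn* (0.44, FDR = 0.00986) and *Sgcd* (0.37, FDR = 0.0255) higher, and *Dag1* (-0.23, FDR = 0.0197) and *Sgcb* (-0.25, FDR = 0.00769) lower. For *Sgcd* the log2FC was 0.75 in replicates 1 to 3 against -0.04 in replicates 4 to 6, a difference between sets that was not tested.

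In *Tug1* KD myotubes 5 members changed at both times, where 45.6% of all genes were called at EPS 0h (24.4% higher and 21.2% lower) and 52.1% at EPS 3h (26.2% higher and 25.9% lower). *Dmd* rose by a log2FC of 0.84 (SE 0.293, FDR = 0.0182) at EPS 0h and 1.38 (SE 0.294, FDR = 0.000159) at EPS 3h. *Sgcd* rose by 0.81 (FDR = 0.00298) and 1.13 (FDR = 5.26e-05), and *Utrn* by 0.68 at both times (FDR = 0.00163 and 0.00124). *Dag1* had a log2FC of -0.29 and -0.54, and *Sspn* of -0.22 and -0.46, all past the threshold. At EPS 0h the groups of every member overlapped, where 13% of all genes were higher and 9.52% lower without overlap. At EPS 3h *Sgcd* was higher and *Sspn* lower without overlap, where 15.9% and 14% of all genes were. Both times share the Rest libraries of their LNA, so they are not independent of each other. The estimated rises were larger in replicates 1 to 3 than in replicates 4 to 6. At EPS 0h they were 1.06 against 0.30 for *Utrn* and 1.10 against 0.42 for *Dmd*, a difference between sets that was not tested. In replicates 4 to 6 alone the EPS 0h calls of both genes were lost (FDR = 0.173 and 0.179). The EPS 0h call of *Dag1* was also lost in that set (FDR = 0.0634) and that of *Sspn* in replicates 1 to 3 (FDR = 0.588), as was that of *Utrn* at EPS 3h in replicates 4 to 6 (log2FC 0.35, FDR = 0.0804). *Sntb1* passed at EPS 0h with the replicate block (log2FC 0.31, FDR = 0.0289).

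**Figure D2:**
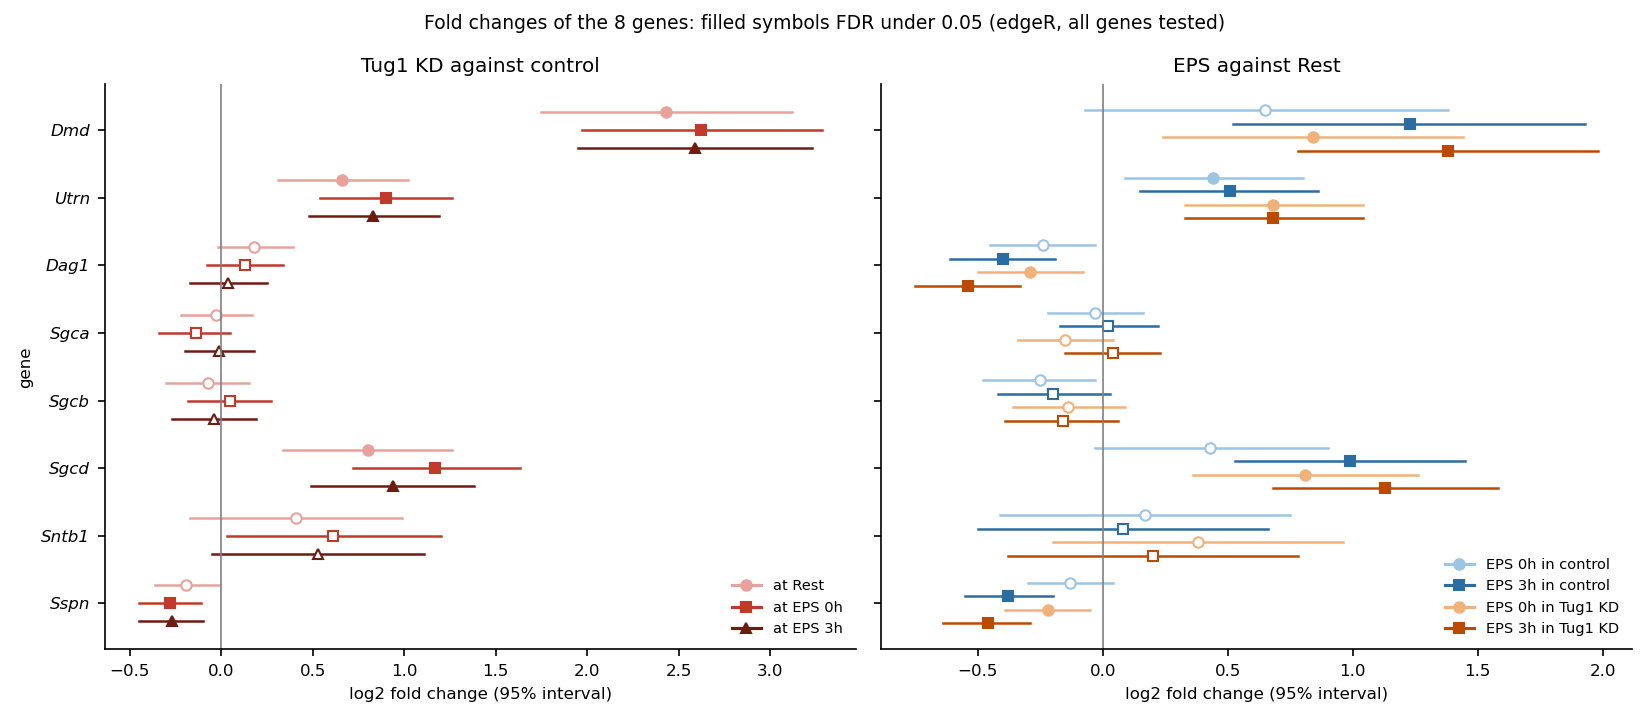
Log2 fold changes of the 8 genes with 95% intervals, for the *Tug1* KD comparison in the 3 conditions (left) and for EPS against Rest within each LNA (right). Filled symbols are past an FDR of 0.05 over all genes tested. *Dmd*, *Utrn* and *Sgcd* lie to the right of 0 in all 7 comparisons, *Dag1* and *Sspn* to the left in all 4 EPS comparisons, and *Sgca* and *Sgcb* have no filled symbol.

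Whether *Tug1* KD altered the response to EPS was tested by an interaction term. With edgeR 0 of the 8 members passed at EPS 0h or EPS 3h, and 0 had an unadjusted p under 0.05. DESeq2 and limma-voom also called 0 of the 8. The interaction of *Dmd* was 0.19 (95% interval -0.76 to 1.14) at EPS 0h and 0.16 (95% interval -0.79 to 1.10) at EPS 3h, that of *Utrn* 0.24 (-0.26 to 0.74) and 0.17 (-0.33 to 0.67), and that of *Sgcd* 0.37 (-0.27 to 1.02) and 0.14 (-0.50 to 0.78). Over all genes 0 were called at EPS 0h, with 324 at an unadjusted p under 0.05, and 1 at EPS 3h (0.00715%), with 430. These intervals still hold changes of more than 1.5-fold for *Utrn* and more than 2-fold for *Dmd*, so the members' responses are not shown to be alike.

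The order of the group means follows from these comparisons. For *Dmd* it ran from Rest control (1.23 CPM) through EPS 0h control (1.92) and EPS 3h control (2.87) to Rest KD (6.62), EPS 0h KD (11.9) and EPS 3h KD (17.2). Only the step from EPS 3h control to Rest KD separated all libraries, and the other neighbours overlapped. *Utrn* had the same lowest 4 groups in the same order, at 173, 235, 246 and 274 CPM, and then both stimulated KD groups at 439 CPM. *Sspn* was highest in Rest control (88.2 CPM), followed by EPS 0h control (80.6), Rest KD (77.4), EPS 3h control (67.9), EPS 0h KD (66.5) and EPS 3h KD (56.2). For *Utrn*, *Dag1*, *Sgca*, *Sgcb*, *Sgcd*, *Sntb1* and *Sspn* no neighbouring groups in the order were free of overlap.

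The members that rose with *Tug1* KD were the longest 3 genes of the 8, though the members were chosen with earlier results of these data known. Genes of each size class were therefore set beside them. With *Tug1* KD at Rest, 1.17% of 3408 genes under 10 kb were called higher, 2.46% of those from 10 to 30 kb, 6.28% from 30 to 100 kb, 18.4% from 100 to 300 kb and 26.9% of the 308 genes over 300 kb. The median log2FC went from -0.10 in the shortest class to 0.27 in the longest. Over 300 kb, 41.6% were called higher at EPS 0h and 33.8% at EPS 3h, where 8.25% and 6.38% of all genes were.

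Among the 308 genes over 300 kb, *Dmd* ranked 1st, 2nd and 1st by log2FC with *Tug1* KD at Rest, EPS 0h and EPS 3h. *Sgcd* ranked at 31, 18 and 19, and *Utrn* at 54, 37 and 27, so all 3 lay above the median of genes of their size. *Sntb1*, the fourth longest member, had a log2FC of 0.41 at Rest, above 93.5% of all genes but not past the threshold (FDR = 0.465). The median of its own class, from 100 to 300 kb, was 0.15. The longest class moved less at Rest in replicates 1 to 3, with a median of 0.13, than in replicates 4 to 6, with a median of 0.42. In that order of sets, the log2FC at Rest was 0.25 and 1.11 for *Utrn* and 2.22 and 2.77 for *Dmd*. For *Sgcd* it went the other way, at 0.84 and 0.75. The part of gene length in the rise of the 3 members was not tested, nor was pairing of either LNA with their transcripts.

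EPS gave a like order of classes. At EPS 3h in control myotubes the median log2FC was -0.13 under 10 kb and 0.40 over 300 kb, where 50.6% of genes were called higher. *Dmd* ranked at 42, *Sgcd* at 58 and *Utrn* at 131 of the 308 genes, so these members were nearer the middle of their class than with *Tug1* KD. Scaling by library size only moved all log2FC of this comparison by -0.17, which turned the median from 100 to 300 kb from 0.16 to -0.01 and left that over 300 kb at 0.23.

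**Figure D3:**
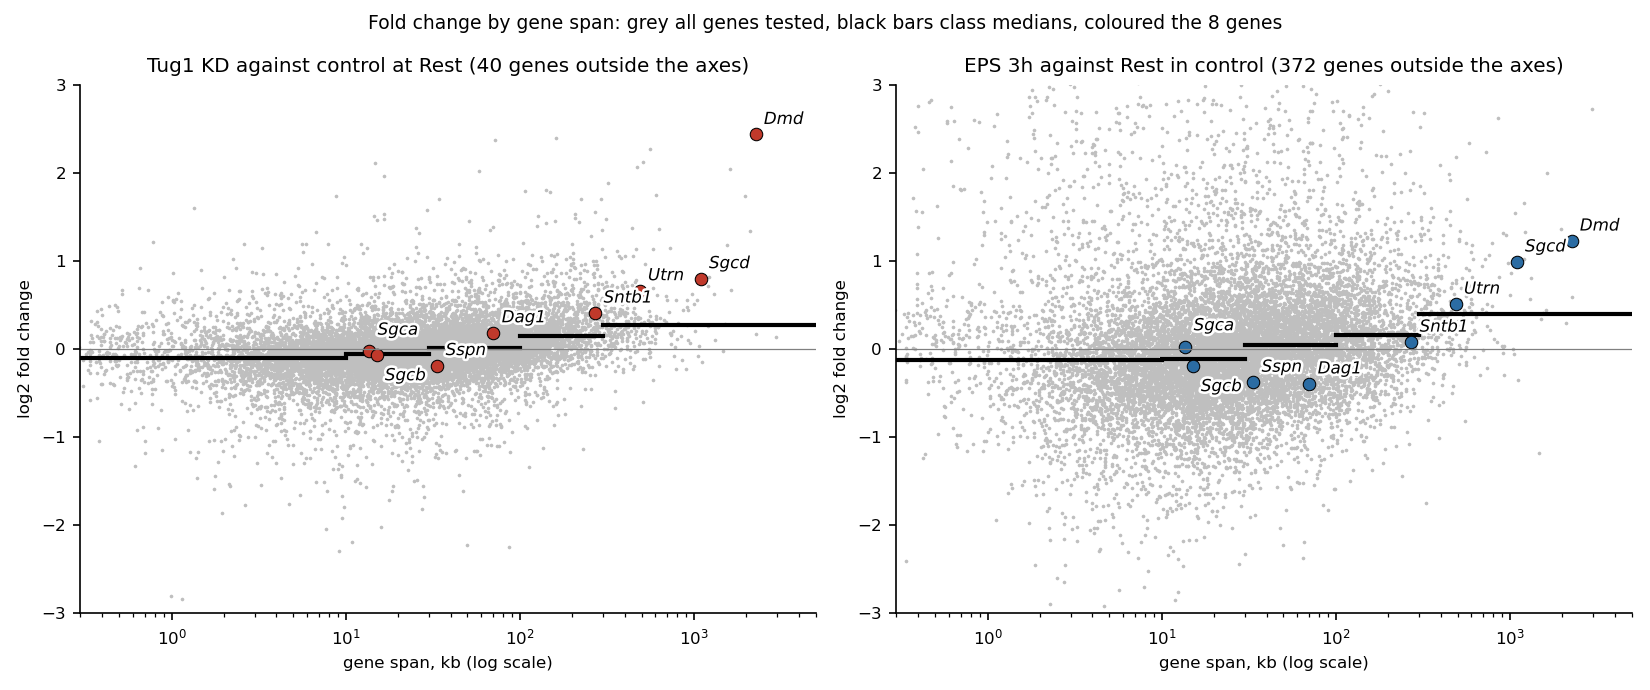
Log2 fold change against gene span (kb, log axis) for *Tug1* KD against control at Rest (left) and EPS 3h against Rest in control (right). Grey points are the genes tested with a known span, black bars the medians of 5 span classes and coloured points the 8 members. The class medians step from -0.10 to 0.27 on the left, and *Dmd* lies at 2.43, the highest gene over 300 kb.

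Other proteins of the complex gave a mixed picture with *Tug1* KD at Rest. Of 21 listed partners 17 were tested, and their median log2FC was -0.02 against -0.03 over all genes. *Cav3*, the muscle caveolin, was higher at Rest (log2FC 0.52, SE 0.155, FDR = 0.0231). *Synm*, an intermediate filament protein that binds dystrobrevin, was lower (log2FC -0.58, SE 0.123, FDR = 0.00125), by -0.91 in the first replicate set and -0.22 (FDR = 0.364) in the second. *Krt8*, a keratin, fell from a mean of 0.899 CPM (0.575 to 1.24) in Rest control to 0.293 CPM (0.135 to 0.459) in Rest KD. Both means lay under the 1 RPM of the filter, so this fall rested on few counts.

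Of 12 membrane repair genes 1 was higher, close to the 5.54% of all genes that were. That gene was *Dysf*, whose product dysferlin patches torn fibre membranes and whose loss causes another limb-girdle dystrophy. *Dysf* rose from 47.3 to 67.5 CPM in control to 109 to 132 CPM in KD libraries, without overlap (log2FC 1.09, SE 0.124, FDR = 9.69e-08), and by 1.30 and 1.12 at EPS 0h and EPS 3h. Of 10 integrin adhesion genes tested, the laminin receptor subunit *Itga6* was higher (log2FC 0.45, FDR = 0.00716). The log2FC of 11 tested matrix ligands at Rest ran from -0.20 to 0.35, with a median of -0.03. In 1 replicate set alone the Rest call of *Cav3* was lost in replicates 4 to 6 (FDR = 0.123) and that of *Itga6* in replicates 1 to 3 (FDR = 0.113).

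The sugar chain that lets dystroglycan bind laminin is built by a set of enzymes, of which 16 of 18 listed were tested. At EPS 3h in control myotubes 8 of the 16 were lower and 3 higher, with a median log2FC of -0.19 against -0.02 over all genes, where 25.9% of all genes were lower. *Pomt2*, one of the enzymes that start the chain, dropped from 18.9 to 25.5 CPM to 6.97 to 10.8 CPM, without overlap (log2FC -1.24, SE 0.0997, FDR = 1.29e-12). *Pomgnt2*, which adds the next sugar, had a log2FC of -1.59 (SE 0.230, FDR = 4.24e-07).

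Of 11 matrix ligands of dystroglycan 4 were lower at EPS 3h, where 25.9% of all genes were. *Hspg2* (perlecan) went from 950 ± 136 to 465 ± 104 CPM (log2FC -1.03, SE 0.128, FDR = 2.26e-08) and *Agrn* (agrin) from 56.4 ± 8.05 to 29.2 ± 6.95 CPM (log2FC -0.95, SE 0.127, FDR = 9.24e-08), both without overlap. Of 10 integrin adhesion genes 4 rose and 2 fell, where 26.1% and 25.9% of all genes did. *Lims1* had a log2FC of 0.75 (FDR = 3.92e-05) and *Fermt2* of 0.51 (FDR = 0.000295), and both act inside the cell at integrin contacts. Among membrane repair genes *Cavin4* was higher (log2FC 0.31, FDR = 0.00112) and *Trim72* lower (log2FC -0.43, FDR = 0.0482).

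**Figure D4:**
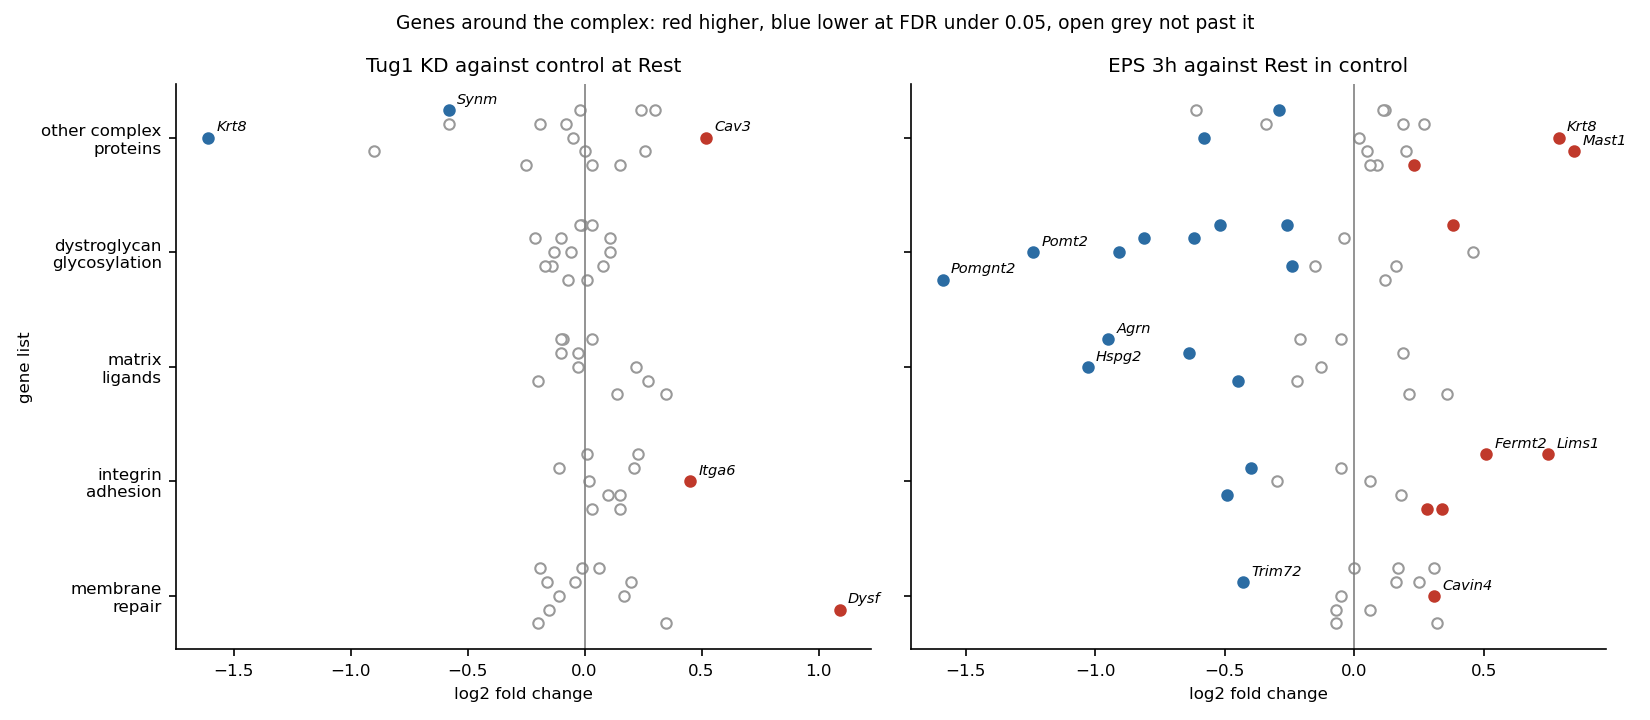
Log2 fold changes of the tested genes of 5 lists around the complex, for *Tug1* KD against control at Rest (left) and EPS 3h against Rest in control (right). Red points are higher and blue points lower at an FDR under 0.05, and open points did not pass. Genes not reported here are not drawn. On the left *Krt8* (-1.61) lies lowest and *Dysf* (1.09) highest of the genes drawn. On the right the glycosylation genes *Pomgnt2* (-1.59) and *Pomt2* (-1.24) stand apart.

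Markers of other states were measured beside these results. The 8 cycling or undifferentiated markers had log2FC from -0.50 to 0.03 with *Tug1* KD at Rest, a median of -0.25 and a summed level of 159.7 to 197.5 CPM in control and 135.8 to 171.8 CPM in KD libraries. Of 12 markers of endothelial, immune, fat, glial and neuronal cells 4 passed the filter, and the summed level of all 12 lay between 4.30 and 20.04 CPM in all libraries. *Plin1* was at 0 in 27 of 36 libraries and *Rbfox3* in 15. The endothelial genes *Kdr* (log2FC 4.67) and *Pecam1* (log2FC 2.28) were higher at EPS 3h in control myotubes. *Kdr* measured 0.0523 to 0.416 CPM in Rest control and 1.47 to 6.48 CPM in EPS 3h control libraries, and *Pecam1* 0.209 to 0.644 and 1.31 to 2.75 CPM. Both lay under 1 CPM in all Rest libraries and so passed the filter through stimulated libraries, which makes these rises not independent of the filter. *Cdh5*, the other endothelial marker, did not pass the filter, with means of 0.308 and 0.461 CPM in these groups. *Cd68*, a macrophage marker, was lower with *Tug1* KD at Rest, at 2.86 to 5.44 CPM in control and 1.4 to 2.17 CPM in KD libraries (log2FC -1.02, FDR = 0.000116), and at EPS 3h (log2FC -0.72, FDR = 0.00901). The part of these markers in the members' changes was not tested.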

How the data were processed

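The authors deposited whole-number counts per gene, without normalization, for 36 poly-A, strand-specific libraries. Per the labels, the tools named were FastQC 0.11.7, fastp 0.14.1 and STAR 2.5 with GRCm39. How reads were assigned to genes, and with which strand option, is not given in the sources used here. Each library's own file held the same counts as its column of the series table, and 0 columns were without a sample. The 1492 genes without a name held 0.0327% of the counts. No pair of libraries in a group was alike within counting error (the lowest chi-square over its degrees of freedom was 4.258).

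Tests ran on the R 4.3.3 package edgeR 4.0.16 (TMM, robust quasi-likelihood, all 6 groups in 1 fit) on the 13995 genes that reached 1 RPM in 12 or more of 36 libraries. FDR is the Benjamini-Hochberg adjusted p over all genes tested, with a threshold of 0.05. On simulated data for *Tug1* KD at Rest, with 200 of 13995 genes changed by a log2 of 1, edgeR recovered 86.5% with 6 false calls. The simulation held only the Rest groups and no replicate sets, so it does not give the error rate of the fit of all 6 groups. Alternatives were DESeq2 1.42.0, limma-voom (limma 3.58.1), other scalings and filters, blocks for replicate number or experiment, the compared groups alone, and either replicate set alone. The test of the difference between sets and the size classes under other settings were added after seeing the data. Same-numbered libraries were taken as pairs where every pair's deviations correlated above 0.1. This held between LNAs at EPS 0h (0.63 to 0.75) and EPS 3h (0.22 to 0.74), for both EPS times in control (0.23 to 0.52 and 0.13 to 0.52) and for EPS 0h in *Tug1* KD (0.16 to 0.43). Deviations were taken from the group mean, so the parting of the replicate sets alone could give such correlations. Pairing by number was not told apart from that parting.

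The members and gene lists were chosen with earlier results of these data known. Named genes were the members, *Tug1*, the genes most alike to each member over the 36 libraries, and from each pathway list up to 4 called genes with the largest log2FC with *Tug1* KD at Rest and up to 2 at EPS 3h in control. Marker genes were named as examples after their values were seen. Some genes that this rule names are not reported here. Spans, exons and canonical starts came from GENCODE for GRCm39, and plots were drawn with matplotlib 3.10.9.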

Additional observations from a re-analysis of the deposited data

Results flagged for a closer look

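A library far from the other 5 of its group was looked for in 48 sets of values, 6 groups for each of the 8 members, and 3 were found, where chance gives about 1 in 20. *Utrn* measured 352 CPM in EPS 3h control replicate 1, and the nearest other library was at 241 CPM. *Sgcd* measured 13.8 CPM in Rest *Tug1* KD replicate 3, with the nearest at 10 CPM. *Sspn* measured 54.7 CPM in EPS 0h *Tug1* KD replicate 6, with the nearest at 66.8 CPM.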

How the results depend on the processing

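Each result was recomputed under 11 alternatives. The 27 called log2FC of members kept their direction in all 297 recomputed values and stayed past the threshold in 277. The 20 lost calls came from leaving out 1 replicate set, from library size scaling, from fitting only the compared groups or from dropping the filter. Those of *Dmd* with *Tug1* KD held in all 11, as did all calls of *Sgcd*. Of values not past the threshold, 44 of 319 passed under an alternative. The number of members called for EPS 0h in control moved from 1 to 2 with library size only, 3 with upper quartile factors, 0 with no filter, 2 with the stricter filter of 10 counts in 6 libraries, 5 with the replicate block, 5 with the experiment block and 4 in replicates 1 to 3 alone. For EPS 0h in *Tug1* KD it moved from 5 to 2 in replicates 4 to 6 alone. The numbers did not pair the libraries with *Tug1* KD at Rest, where the lowest correlation was -0.10 and where the replicate block gave *Sntb1* a log2FC of 0.51 (FDR = 0.00231), nor for EPS 3h in *Tug1* KD (0.07). Over all genes, the replicate block moved the calls with *Tug1* KD at Rest from 776 higher and 625 lower to 1273 and 1137, and library size only moved those at EPS 3h in control from 3651 and 3626 to 2675 and 5526. Calls for *Tug1* KD at EPS 3h fell from 893 and 715 to 503 and 328 in the compared groups alone.

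Values not past the threshold that changed sign were as follows, and the causes were not tested. In replicates 1 to 3 alone *Sgca* had 0.119 and 0.018 with *Tug1* KD at Rest and EPS 3h and -0.042 for EPS 3h in KD, *Dag1* and *Sgcb* had -0.058 and -0.020 with KD at EPS 0h, *Sntb1* had -0.031 for EPS 3h in control, and the *Sgca* interaction at EPS 3h was -0.101. In replicates 4 to 6 alone *Sgcb* had 0.092 with KD at Rest and 0.018 for EPS 3h in control, *Sgcd* had -0.040 for EPS 0h in control and *Sgca* 0.116 for EPS 0h in KD. In that set the interactions at EPS 0h were -0.261 for *Dmd*, -0.101 for *Utrn*, 0.162 for *Dag1*, 0.129 for *Sgca* and -0.045 for *Sntb1*, and at EPS 3h -0.467 for *Dmd*, -0.269 for *Utrn*, -0.103 for *Sgcb* and -0.304 for *Sntb1*. For EPS 3h, *Sgca* in control and in KD had -0.147 and -0.123 with library size only, -0.018 and -0.001 with upper quartile factors, -0.063 and -0.107 with no filter, and -0.028 and -0.019 with the stricter filter, and *Sntb1* in control had -0.102 with library size only and -0.016 with no filter. With no filter *Sgca* had 0.005 with KD at Rest, and the EPS 3h interactions of *Sgca* and *Sgcb* were -0.044 and -0.029. In the compared groups alone these were -0.015 and -0.002.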

Other observations

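Genes whose level followed each member over the 36 libraries were sought by Pearson's r of log2 CPM, as a description, since the libraries share groups and replicate sets. The 3 most like *Dmd* were *Nrxn3* (r = 0.958), *Psd3* (0.956) and *Dlg2* (0.954), which span 1612, 522.9 and 1973 kb. *Utrn* was most like *Mycbp2* (0.975, 233.4 kb) and *Sgcd* most like *Akap6* (0.942, 456.4 kb). For the other members the nearest were *Mylk4* for *Sntb1* (0.969), *Ptgfrn* for *Dag1* (0.909), *Chrnb1*, a subunit of the muscle acetylcholine receptor, for *Sgcb* (0.909), *Zfp952* for *Sspn* (0.898) and *Tekt5* for *Sgca* (0.831). Among the members, *Dmd*, *Utrn* and *Sgcd* had an r of 0.90 with each other, *Sspn* had -0.60 with *Sgcd* and -0.59 with *Dmd*, and *Sgca* had -0.05 with *Dmd*.

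In *Tug1* KD myotubes 8 of 16 glycosylation enzymes were lower and 0 higher at EPS 0h, and 7 were lower and 3 higher at EPS 3h. Over all genes 21.2% were lower and 24.4% higher at EPS 0h, and 25.9% lower and 26.2% higher at EPS 3h. Of 17 partners 6 were higher and 2 lower at EPS 0h and 4 were higher and 2 lower at EPS 3h, so at EPS 3h neither count was above those shares. *Cav3* had a log2FC of -0.71 and -0.99 at those times, both past the threshold, although in replicates 4 to 6 alone the first was -0.25 (FDR = 0.273).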
